A study of Mus musculus with 12 samples.

Results

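The 47 genes described here are known targets of the transcription factor p53 and members of their gene families, together with the inhibitors of p53 and core genes of the apoptotic machinery. They were chosen by name, with earlier results of these data known. Every probe set whose single gene symbol in the platform annotation was one of the 47 was taken, without regard to its values. A named probe set was found for 45 of them, of 18193 genes that had one in all, and these 45 genes had 112 probe sets. Above the filter on low intensities lay 44 of the 45 genes, of 12280 genes tested. Trp53, the gene of p53 itself, and Bax were not analysed here. Birc3, an inhibitor of apoptosis, averaged 2.54 in CAG150 and 9.42 in HM1 at day 6, and 9.18 in CAG150 and 7.82 in HM1 at day 4, and was too dim to test.

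Total RNA from 2 lines of mouse embryonic stem (ES) cells was hybridised to Affymetrix arrays during neuronal differentiation. CAG150 cells carry expanded CAG repeats, the kind of change that lengthens a glutamine stretch in the huntingtin protein in Huntington's disease. HM1 is a male mouse ES line, deficient in Hprt and long used for gene targeting. The groups were CAG150 at day 6, HM1 at day 6, CAG150 at day 4 and HM1 at day 4, with 3 arrays each and 12 in all. Each genotype is represented by 1 line, and the labels do not say whether replicates came from separate cultures, so the p-values cover the spread among these arrays and may reflect technical variation alone. The titles were used to set the day, because the free-text descriptions of the HM1 day 6 arrays name day 4. Array medians lay between 19.2 and 25.9 in intensity (arbitrary units), and the small number of arrays limits the precision. The medians of log2 values spanned 0.25 over the 12 arrays.

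p53 is kept low in unstressed cells by Mdm2, which marks it for degradation, and by Mdm4, which blocks its activity. When p53 is stabilised it switches on genes that halt the cell cycle, repair DNA or start apoptosis, and Mdm2 is itself one of its targets. In the mitochondrial pathway, BH3-only proteins such as Puma (Bbc3) and Noxa (Pmaip1) counteract the survival members of the Bcl2 family. Bax and Bak then release cytochrome c, which joins Apaf1 to activate caspase 9. Many of these genes also answer to other regulators.

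At day 6 many of the p53 target genes were lower in CAG150 than in HM1 cells. The test passed with lower values in CAG150 for 22 of the 44 genes and with a higher value for 1, against 11.2% lower and 10.1% higher among all genes tested (21.4% in either direction). Passing means an adjusted p under 0.05 from limma, with Benjamini-Hochberg adjustment over all 12280 genes. The median log2 difference of the 44 genes was -0.30, against 0 for all genes. An unadjusted p under 0.05 was reached by 27 of the 44, against 33.9% of all genes. The arrays of both lines did not overlap for 31 of the 44, against 38.6% of all genes. Gadd45b, Cdkn1a, Perp, Fas, Phlda3 and Pmaip1 had the largest decreases on the log2(intensity + 16) scale.

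At day 4 fewer genes passed, although the difference was negative for 33 of the 44, and for 32 at day 6. Among all 12280 genes it was negative for 6013 at day 4 and 6176 at day 6. The test passed with lower values in CAG150 for 12 of the 44 genes and with higher values for 2. Among all genes tested, 7.92% passed as lower and 7.87% as higher (15.8% in either direction). The median log2 difference was -0.12, against 0.01 for all genes, and the arrays did not overlap for 22 genes, against 34.4% of all genes. Without CAG150 replicate 2 of day 4, 7 genes passed as lower at day 4. Genes that passed as lower at both days numbered 11, against 4.63% of all genes: Mdm2, Cdkn1a, Gadd45a, Gadd45b, Plk2, Trp53inp1, Phlda3, Perp, Aen, Bbc3 and Apaf1. Genes that passed as higher at both days numbered 0, against 3.79% of all genes. A further 11 passed at day 6 and not at day 4, and whether their differences changed between days is given with the interaction test. In bulk RNA, fewer cells of a type and less RNA per cell cannot be told apart.

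**Figure D1:**
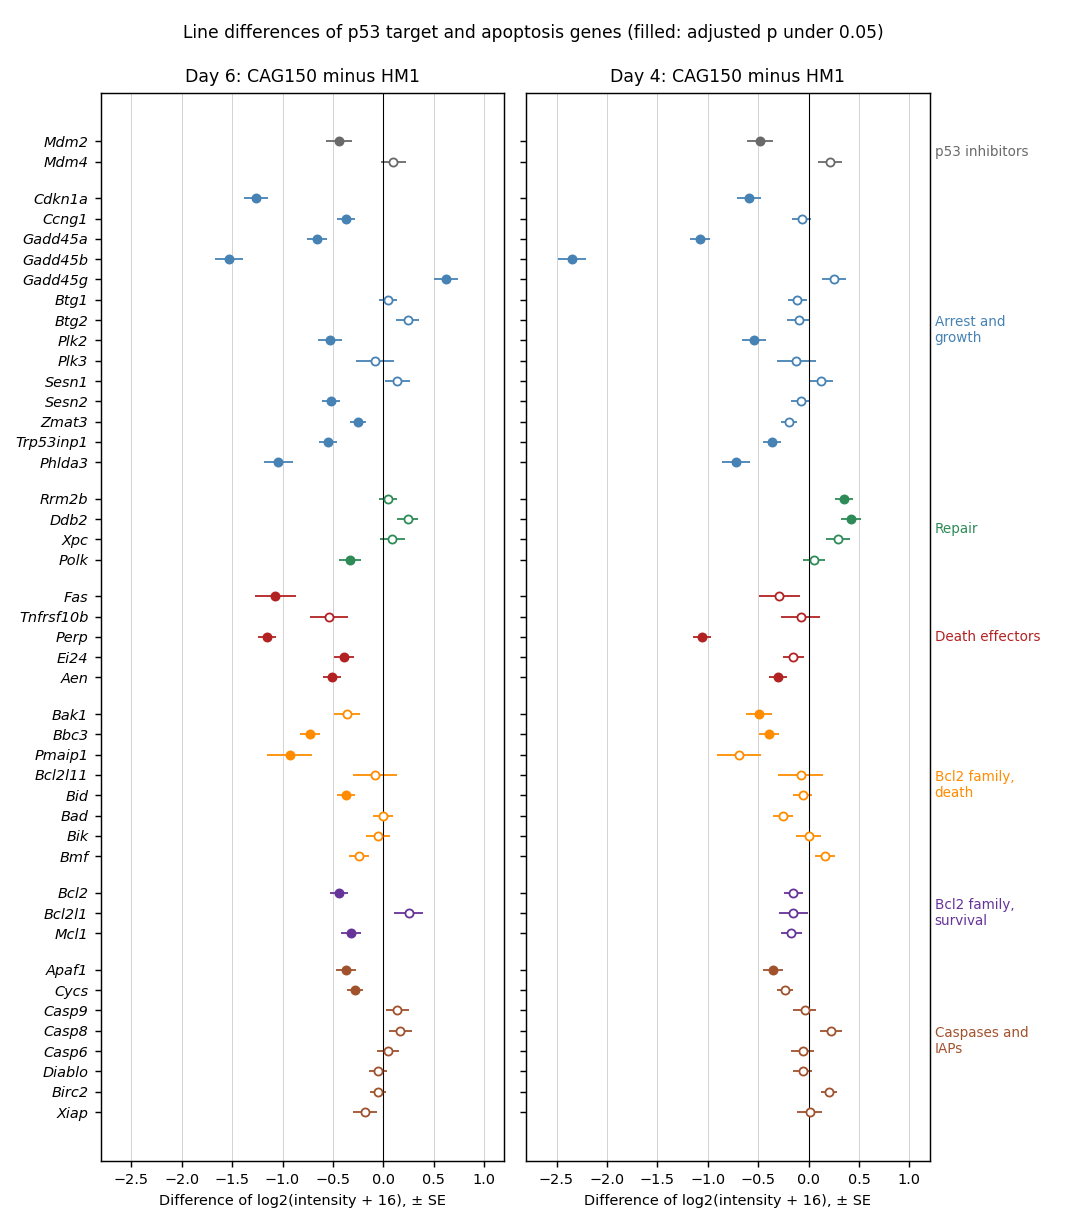
Each point is the difference of log2(intensity + 16) between CAG150 and HM1 for 1 gene, at day 6 on the left and day 4 on the right, with its standard error, and genes are grouped by role. Filled points passed at an adjusted p under 0.05: 22 lower and 1 higher at day 6, and 12 lower and 2 higher at day 4.

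Mdm2, the ubiquitin ligase that degrades p53 and is induced by it, had intensities of 284, 329 and 317 in CAG150 cells at day 6, against 494, 416 and 373 in HM1 cells. Its day 4 intensities were 322, 293 and 284 in CAG150 cells, against 459.6, 350 and 469 in HM1 cells. Every CAG150 array lay below every HM1 array at both days. The log2 difference was -0.44 ± 0.13 (SE, adjusted p = 0.027) at day 6 and -0.48 ± 0.13 (adjusted p = 0.023) at day 4. All log2 differences are on the log2(intensity + 16) scale, which understates the change of dim genes. The day 6 call was lost without CAG150 replicate 1 or 3 or HM1 replicate 1 or 2 of that day, with adjusted p values of 0.094, 0.06, 0.11 and 0.056. The day 4 call was lost without CAG150 replicate 2 or 3 or HM1 replicate 1 or 3 of that day, with adjusted p values of 0.068, 0.076, 0.079 and 0.085. Mdm4, the second inhibitor, did not pass at either day (0.10 ± 0.12, adjusted p = 0.59, and 0.21 ± 0.12, adjusted p = 0.26).

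Among 14 genes listed for cell cycle arrest and growth control, 9 fell and 1 rose in CAG150 at day 6 (median -0.45). At day 4, 6 fell and 0 rose (median -0.15). That is 71.4% and 42.9% of the list, against 21.4% and 15.8% of all genes. Cdkn1a encodes p21, the inhibitor of cyclin-dependent kinases through which p53 stops the cell cycle. It had 453, 548 and 543 in CAG150 cells at day 6, against 1196, 1174 and 1389 in HM1 cells. At day 4 it had 423, 530.1 and 518 in CAG150 cells, against 693, 829 and 716 in HM1 cells. The lines did not overlap at either day, and the HM1 arrays of day 6 stood highest of all. Cdkn1a was 2.39-fold lower in CAG150 at day 6 (-1.26 ± 0.12, adjusted p = 1.1e-05) and 1.51-fold lower at day 4 (-0.59 ± 0.12, adjusted p = 0.0048). The day 4 call was lost when the gene's probe sets were averaged (-0.37, adjusted p = 0.059).

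**Figure D2:**
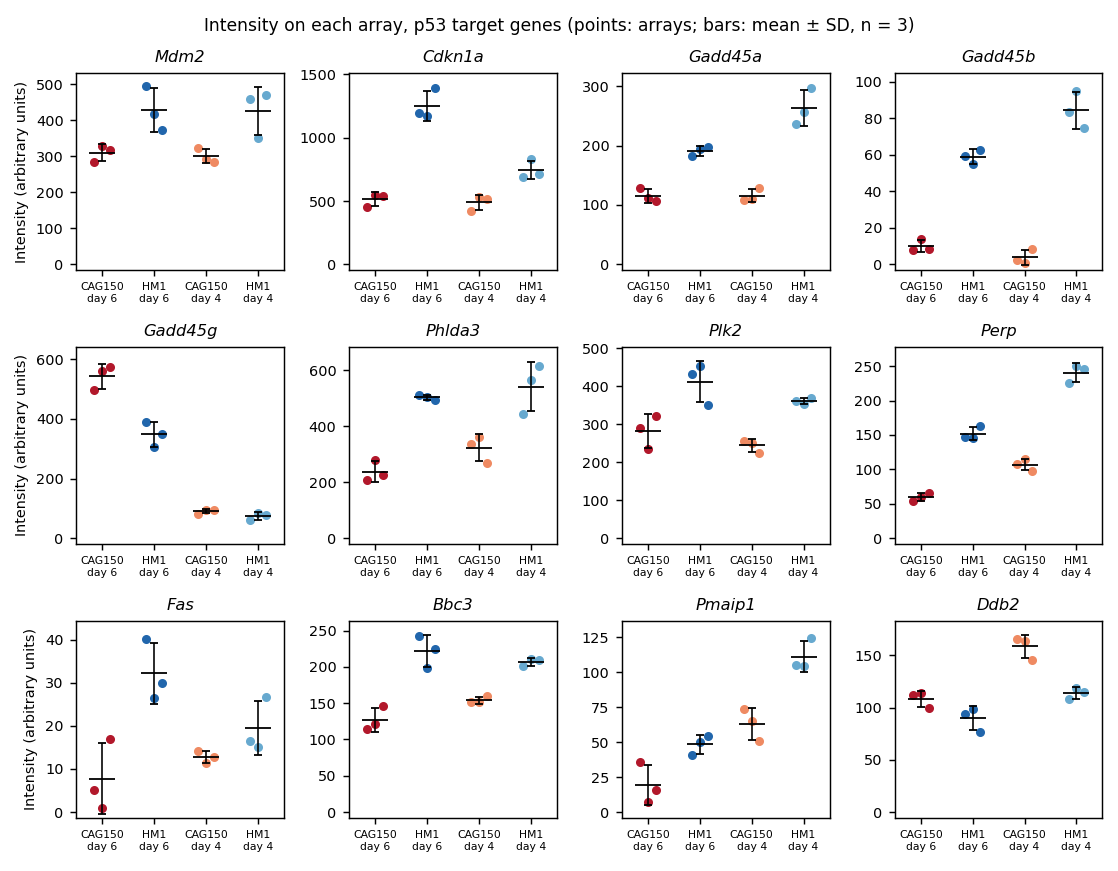
Intensity of 12 genes on each array, with 3 points per group and bars for the mean ± SD, in the order CAG150 day 6, HM1 day 6, CAG150 day 4 and HM1 day 4. CAG150 points lie below HM1 points at both days for Mdm2, Cdkn1a, Gadd45a, Gadd45b, Phlda3, Plk2, Perp and Bbc3, and Gadd45g at day 6 and Ddb2 at both days lie the other way.

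The Gadd45 genes, whose small proteins respond to stress and link it to growth arrest and DNA demethylation, did not move together. Gadd45b had 7.73, 13.9 and 8.63 in CAG150 cells at day 6, against 59.4, 54.7 and 62.7 in HM1 cells. At day 4 it had 2.31, 0.875 and 8.2 in CAG150 cells, against 83.5, 94.8 and 74.6 in HM1 cells. It read 13.9 or less on all 6 CAG150 arrays, around or under the filter's intensity of 11.9, and 54.7 or more on all 6 HM1 arrays. The log2 difference was -1.53 ± 0.14 at day 6 (adjusted p = 7.4e-06) and -2.35 ± 0.14 at day 4 (adjusted p = 2.8e-07). With so dim a signal in CAG150 its size depends on the constant added: with 1 in place of 16 it was -2.47 at day 6 and -4.46 at day 4, and with 64 it was -0.73 and -1.13.

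Gadd45a, a direct p53 target, had 129, 112 and 106 in CAG150 cells at day 6, against 182, 195 and 197 in HM1 cells. Day 4 arrays read 109, 110.2 and 128 in CAG150 cells, against 237, 256 and 297 in HM1 cells. The lines did not overlap at either day, with differences of -0.66 ± 0.10 (adjusted p = 0.00069) and -1.08 ± 0.10 (adjusted p = 1.9e-05). Gadd45g, a family member expressed in early neurons, differed in the other direction. It had 496, 560.1 and 573 in CAG150 cells at day 6, against 391, 306 and 349 in HM1 cells, and was 1.54-fold higher (0.62 ± 0.12, adjusted p = 0.003). It was the 1 gene of the 44 that passed with a higher value in CAG150 at day 6, and at day 4 it did not pass (0.25 ± 0.12, adjusted p = 0.18).

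Phlda3, a p53 target that restrains Akt signalling, had 207, 279.9 and 226 in CAG150 cells at day 6, against 511, 505 and 494 in HM1 cells. The day 4 values were 337, 363 and 269 in CAG150 cells, against 445, 564 and 615 in HM1 cells. The lines stood apart at both days, by -1.04 ± 0.14 (adjusted p = 0.00022) and -0.72 ± 0.14 (adjusted p = 0.0045). Trp53inp1, a nuclear protein that promotes p53 activity and autophagy, had 2255, 2089 and 2373 in CAG150 cells at day 6, against 3391, 2995 and 3498 in HM1 cells (-0.55 ± 0.09, adjusted p = 0.0013). Day 4 intensities were 1998, 2011 and 1697 in CAG150 cells, against 2449, 2392 and 2484 in HM1 cells (-0.36 ± 0.09, adjusted p = 0.021). Its arrays did not overlap at either day. The day 4 call was lost without CAG150 replicate 3 or HM1 replicate 1 or 3 of day 4 (adjusted p 0.083, 0.053 and 0.06) and under quantile normalization (-0.31, adjusted p = 0.054). With its probe sets averaged, Trp53inp1 did not pass at day 6 (-0.39, adjusted p = 0.081) or day 4 (-0.09, adjusted p = 0.74). Its dimmer probe set gave -0.24 (adjusted p = 0.63) at day 6 and 0.19 (adjusted p = 0.72) at day 4.

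Plk2, a polo-like kinase induced by p53, had 291, 234 and 321 in CAG150 cells at day 6, against 432, 454 and 350.4 in HM1 cells. On the day 4 arrays it had 257, 249.7 and 225 in CAG150 cells, against 361, 352 and 368 in HM1 cells. CAG150 was below HM1 on every array, by -0.53 ± 0.12 (adjusted p = 0.008) at day 6 and -0.54 ± 0.12 (adjusted p = 0.01) at day 4. Sesn2, a sestrin that restrains mTORC1, had 245, 207 and 216 in CAG150 cells at day 6, against 341, 353 and 288 in HM1 cells (-0.52 ± 0.09, adjusted p = 0.0015). At day 4 its difference was -0.08 ± 0.09 (adjusted p = 0.62). The second probe set of Sesn2, of similar brightness (mean log2 of 8.30, against 8.38), gave another pattern. It did not pass at day 6 (-0.28, adjusted p = 0.25 over all probe sets) and passed at day 4 with higher values in CAG150 (0.66, adjusted p = 0.017), at 471, 358 and 472 in CAG150, against 267, 229 and 308 in HM1.

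Smaller decreases at day 6 were measured for Ccng1, the cyclin G1 gene, at 4659 ± 125 in CAG150 and 6030.4 ± 62.8 in HM1 (SD, n = 3), a difference of -0.37 (adjusted p = 0.0098). Zmat3, an RNA-binding zinc finger protein, differed by -0.25 (adjusted p = 0.036), and this call was lost with any 1 of 5 arrays left out (adjusted p up to 0.12 over the alternatives). Of the 45 members measured, Ccng1 alone lay on chromosome 11, whose genes had a median difference of 0.228 at day 6 and 0.172 at day 4. No measured member lay on chromosome 8, whose genes had medians of 0.24 and 0.196. Btg1, Btg2, Plk3 and Sesn1 did not pass at either day on their brightest probe sets, with differences between -0.12 and 0.24.

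Of 4 genes of DNA repair and nucleotide supply, 2 rose in CAG150 at day 4 and 0 fell (median 0.32), and at day 6 0 rose and 1 fell (median 0.07). The day 6 share, 25%, was near the 21.4% of all genes, and the day 4 share was 50%, against 15.8%. Ddb2, a damage sensor of nucleotide excision repair, had 166, 164 and 146 in CAG150 cells at day 4, against 108, 119 and 115 in HM1 cells. It was 1.34-fold higher (0.42 ± 0.10, adjusted p = 0.011), and at day 6 the difference was 0.24 ± 0.10 (adjusted p = 0.11). Rrm2b, the p53-induced subunit of ribonucleotide reductase, had 129, 114 and 112 in CAG150 cells at day 4, against 92.6, 82.2 and 92.3 in HM1 cells. The difference was 0.35 ± 0.09 (adjusted p = 0.016), and the call was lost without CAG150 replicate 1 or HM1 replicate 2 of day 4 (adjusted p 0.066 and 0.057) and with probe sets averaged (0.27, adjusted p = 0.085). Both genes had every CAG150 array above every HM1 array at day 4. Polk, a DNA polymerase that bypasses lesions, fell by 0.33 at day 6 (adjusted p = 0.047), a call lost with any 1 of 10 arrays left out and reaching an adjusted p of 0.14 over the alternatives. Xpc, which recognises damaged DNA, did not pass (0.09 at day 6 and 0.29 at day 4).

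Of 5 death receptors and other p53 death effectors, 4 fell in CAG150 at day 6 (median -0.54) and 2 at day 4 (median -0.29), and 0 rose at either day. By share, 80% and 40% passed, against 21.4% and 15.8% of all genes. Perp, a membrane protein of desmosomes that is also needed for p53-dependent death, had 53.5, 59.5 and 66.2 in CAG150 cells at day 6, against 147, 146 and 163 in HM1 cells. Its intensities at day 4 were 108, 115 and 98.1 in CAG150 cells, against 225, 251 and 246 in HM1 cells. The lines were far apart at both days, 2.22-fold (-1.15 ± 0.09, adjusted p = 2.8e-06) and 2.09-fold (-1.06 ± 0.09, adjusted p = 8.7e-06) lower in CAG150. Fas, the death receptor for Fas ligand, had 5.18, 1.03 and 16.9 in CAG150 cells at day 6, against 40.2, 26.4 and 29.9 in HM1 cells. The groups did not overlap, although both were dim, and the difference was -1.07 ± 0.20 (adjusted p = 0.0026). It was -2.43 with a constant of 1 and -0.43 with 64. At day 4 Fas differed by -0.29 ± 0.20 (adjusted p = 0.37).

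Aen, a nuclease induced by p53, averaged 650.3 ± 29.2 in CAG150 and 934 ± 57.8 in HM1 at day 6 (SD, n = 3), a difference of -0.51 (adjusted p = 0.0016). Its day 4 mean was 937 ± 47.4 in CAG150 and 1160.3 ± 111 in HM1, a difference of -0.30 (adjusted p = 0.039). The day 4 call was lost with any 1 of 7 arrays left out and reached an adjusted p of 0.13 over the alternatives. Ei24, a p53-induced protein of the endoplasmic reticulum, had 1267, 1557 and 1523 in CAG150 cells at day 6, against 1899, 1794 and 2002 in HM1 cells. Its difference was -0.39 (adjusted p = 0.013), and the call was lost without CAG150 replicate 1 or HM1 replicate 3 of day 6 (adjusted p 0.054 and 0.051). Tnfrsf10b, the mouse receptor for the death ligand Trail, was dim throughout, at 8.28 ± 5.82 in CAG150 and 19 ± 4.72 in HM1 at day 6, and did not pass (-0.54 ± 0.19, adjusted p = 0.06).

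In the Bcl2 family, 3 of 8 death-promoting genes fell in CAG150 at day 6 (median -0.30) and 2 at day 4 (median -0.17), and 0 rose. The 37.5% and 25% that passed stood against 21.4% and 15.8% of all genes. Bbc3 encodes Puma, a BH3-only protein and main mediator of p53-dependent death. It had 114, 122 and 146 in CAG150 cells at day 6, against 243, 199 and 224 in HM1 cells. The values at day 4 were 151, 152 and 159.8 in CAG150 cells, against 201, 211 and 209 in HM1 cells. The lines did not overlap, and Bbc3 was lower in CAG150 by -0.73 ± 0.10 (adjusted p = 2e-04) at day 6 and by -0.39 ± 0.10 (adjusted p = 0.017) at day 4. The day 4 call was lost without CAG150 replicate 1 or 2 or HM1 replicate 2 of day 4 (adjusted p 0.055, 0.056 and 0.052).

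Pmaip1 encodes Noxa, the BH3-only partner of Mcl1. It had 35.4, 7.28 and 15.5 in CAG150 cells at day 6, against 41.1, 49.7 and 54.1 in HM1 cells, and 73.5, 65 and 50.6 in CAG150 cells at day 4, against 105, 104 and 124 in HM1 cells. The CAG150 arrays were the lower at both days and the more spread at day 6. The difference passed at day 6 (-0.93 ± 0.22, adjusted p = 0.0097), where it was -1.52 with a constant of 1 and -0.44 with 64. At day 4 it was -0.69 ± 0.22 (adjusted p = 0.053). Bak1, the pore-forming relative of Bax, had 70.8, 81.2 and 95.2 in CAG150 cells at day 4, against 124, 131 and 110.2 in HM1 cells (-0.49 ± 0.13, adjusted p = 0.02). At day 6 it differed by -0.36 ± 0.13 (adjusted p = 0.059). Its day 4 call was lost without CAG150 replicate 1 or 2 or HM1 replicate 1 or 2 of day 4 (adjusted p 0.081, 0.058, 0.055 and 0.072).

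Bid, which links death receptors to mitochondria, averaged 122 ± 13.9 in CAG150 and 163 ± 8.94 in HM1 at day 6 (-0.37, adjusted p = 0.0098), and did not pass with its probe sets averaged (-0.22, adjusted p = 0.10). Bad, Bik, Bmf and Bcl2l11 did not pass at either day on the brightest probe sets, with differences between -0.25 and 0.16. On that of Bcl2l11 the HM1 arrays of day 6 were spread widely, at 618, 916 and 407. Of 3 survival members, Bcl2 and Mcl1 fell at day 6 on their brightest probe sets and 0 rose (median -0.32), and at day 4 limma passed 0, with 0 at an unadjusted p under 0.05. The day 6 share was 66.7%, of 3 genes, against 21.4% of all genes. Bcl2 had 159, 149.9 and 146 in CAG150 cells at day 6, against 204, 226 and 204 in HM1 cells (-0.44 ± 0.09, adjusted p = 0.0054), and did not pass with probe sets averaged (-0.22, adjusted p = 0.17). Mcl1 had 1398, 1174 and 1395 in CAG150 cells, against 1637, 1615 and 1693 in HM1 cells (-0.32 ± 0.10, adjusted p = 0.047), and its call was lost with any 1 of 11 arrays left out, reaching an adjusted p of 0.16 over the alternatives. Other probe sets of both genes passed at day 4. Mcl1 was lower in CAG150 on 4 of 6 at day 4, with differences of -0.26, -0.35, -0.35 and -0.38 (adjusted p 0.047, 0.014, 0.017 and 0.022 over all probe sets), and on 1 of 6 at day 6 (-0.31, adjusted p = 0.045). Bcl2 was lower at day 4 on 1 of 5 (-0.52, adjusted p = 0.043), which also passed at day 6 (-0.53, adjusted p = 0.032). Bcl2l1, the Bcl-xL gene, had a difference of 0.25 ± 0.14 at day 6 (adjusted p = 0.24).

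Among 8 caspases and regulators of caspases, 2 fell at day 6 and 1 at day 4, 0 rose, and both medians were -0.05. These shares, 25% and 12.5%, were near the 21.4% and 15.8% of all genes that passed. Apaf1, the scaffold of the apoptosome, had 316, 324 and 319 in CAG150 cells at day 6, against 434, 399 and 423 in HM1 cells (-0.37 ± 0.10, adjusted p = 0.018). The day 4 means were 373 ± 7.87 in CAG150 and 482 ± 71.1 in HM1 (-0.35 ± 0.10, adjusted p = 0.032). Its groups did not overlap at day 6, and at day 4 the lowest HM1 array, at 400.1, still lay above the highest CAG150 array, at 378. The Apaf1 calls were lost with any 1 of 4 arrays left out at day 6 and of 5 at day 4, with adjusted p values up to 0.06 and 0.11 over the alternatives. Cycs, the cytochrome c gene, differed by -0.28 at day 6 (adjusted p = 0.034), a call lost with any 1 of 6 arrays left out (adjusted p up to 0.12). Casp9, Casp8, Casp6, Diablo, Birc2 and Xiap did not pass at either day, with differences between -0.18 and 0.22.

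A promoter window was listed in RefSeq (GRCm38.p6) for 36 of the 45 measured genes, covering 250 bases before to 50 after each annotated start. The consensus p53 half-site of 10 bases was searched, which reads the same way on both strands. It was present in 10 of the 36 genes (27.8%), against 9.55% of 27025 genes. Over single windows, it was in 11 of 52 (21.2%), against 8.36% of 32851. A pair of half-sites within 13 bases of each other was found for 1 of these genes, Cdkn1a, and for 20 of all genes. A match describes these letters only. Stretches of 60 bases are shown because they belong to genes that fell in CAG150 at day 6 and hold a half-site, in capitals, upstream of the start.
Cdkn1a (chr17:29090881-29090940, plus strand): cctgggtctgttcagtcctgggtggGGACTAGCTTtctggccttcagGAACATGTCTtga
Mdm2 (chr10:117710910-117710969, minus strand): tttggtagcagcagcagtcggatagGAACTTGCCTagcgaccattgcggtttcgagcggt
Gadd45a (chr6:67037413-67037472, minus strand): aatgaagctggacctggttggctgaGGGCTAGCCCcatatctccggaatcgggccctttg
Ccng1 (chr11:40755437-40755496, minus strand): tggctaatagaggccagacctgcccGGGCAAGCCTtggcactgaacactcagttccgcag
Ei24 (chr9:36797335-36797394, minus strand): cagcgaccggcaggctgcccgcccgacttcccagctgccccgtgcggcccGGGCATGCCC
The stretch of Cdkn1a, with its pair, spans 98 to 39 bases before the start, and Cdkn1a passed with lower values at both days. Mdm2 and Gadd45a also passed at both days, and Ccng1 and Ei24 passed at day 6. Passing at day 6 was a condition for being shown. Whether genes with a half-site fell more often than the other members was not tested.

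Several members are read by more than 1 probe set, and the values by gene use the brightest. Tested separately, 96 probe sets of these genes lay above the filter, of which 26 fell and 3 rose in CAG150 at day 6, and 20 fell and 6 rose at day 4. Over all 23082 probe sets tested, 7.44% were lower and 8.55% higher at day 6, and 5.16% lower and 6.56% higher at day 4. Of 29 genes with several such probe sets, 13 had passed at day 6, all probe sets of 12 of these had the same sign, and 5 (Aen, Bcl2, Cdkn1a, Gadd45b and Mdm2) passed on at least 2 probe sets. At day 4, 9 had passed, 8 were of one sign throughout, and 3 (Ddb2, Gadd45b and Mdm2) passed on at least 2. In neither comparison did another probe set of these 13 or 9 genes pass in the opposite direction.

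The second probe set of Cdkn1a fell by 0.66 at day 6 (adjusted p = 0.027 over all probe sets) and differed by -0.15 at day 4 (adjusted p = 0.63). For Gadd45b, a second probe set gave -2.03 at day 6 and -2.40 at day 4, and the last, dim in every group, gave -0.14 and -0.13. Some genes passed on a dimmer probe set alone, 3 at day 6 and 8 at day 4, which was seen after their values were known. The 8 include Mcl1, Bcl2 and Sesn2, whose values are given above, and Cycs (-0.28, adjusted p = 0.04) and Btg2 (-0.79, adjusted p = 0.00015), both lower in CAG150 at day 4 on 1 probe set. Bcl2l11, the gene of the BH3-only protein Bim, passed as lower in CAG150 on 1 of 5 probe sets at both days (-0.68, adjusted p = 0.00014, and -0.34, adjusted p = 0.018). Without passing, its others differed by -0.57, -0.47, -0.35 and -0.08 at day 6, and by 0.22, -0.07, 0.18 and -0.08 at day 4. Btg1 was higher on its dimmest probe set (1.13, adjusted p = 0.0016, and 0.80, adjusted p = 0.017). Sesn1 was higher on 1 of 3 (0.45, adjusted p = 0.019, and 0.51, adjusted p = 0.013).

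Between day 4 and day 6 members moved in both directions in each line. In CAG150, 9 of 44 rose and 11 fell by day 6, against 22.5% and 21.9% of all genes (44.4% in either direction), so the share that changed, 45.5%, was near that of all genes. In HM1, 13 rose and 10 fell, against 20.4% and 18.5% of all genes (38.9% in either direction). Medians were -0.06 in CAG150 and 0.06 in HM1, against 0 for all genes in both lines. Day 6 and day 4 arrays did not overlap for 27 genes in CAG150, against 55% of all genes, and for 25 in HM1, against 49.1%. Mdm2 did not pass in CAG150 (0.05 ± 0.13, adjusted p = 0.80) or in HM1 (0.01 ± 0.13, adjusted p = 0.97).

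Genes that rose in both lines numbered 8 (18.2%), against 15.3% of all genes: Gadd45g, Btg1, Btg2, Plk3, Rrm2b, Bad, Bcl2 and Casp6. Gadd45g had 496, 560.1 and 573 at day 6, against 82.8, 96 and 94.6 at day 4, in CAG150, and 391, 306 and 349 at day 6, against 60.3, 85.2 and 77.6 at day 4, in HM1. Plk3, a polo-like kinase of the stress response, had 156, 267 and 219.6 at day 6, against 46.7, 44.4 and 31.9 at day 4, in CAG150, and 268, 163 and 253 at day 6, against 46.9, 47.1 and 42.4 at day 4, in HM1. These had the largest increases of the 44 genes, without overlap between days. Gadd45g rose 5.21-fold in CAG150 (2.38 ± 0.12, adjusted p = 1.7e-08) and 4.05-fold in HM1 (2.02 ± 0.12, adjusted p = 8.7e-08). Plk3 rose 3.99-fold in CAG150 (2.00 ± 0.19) and 3.90-fold in HM1 (1.96 ± 0.19).

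**Figure D3:**
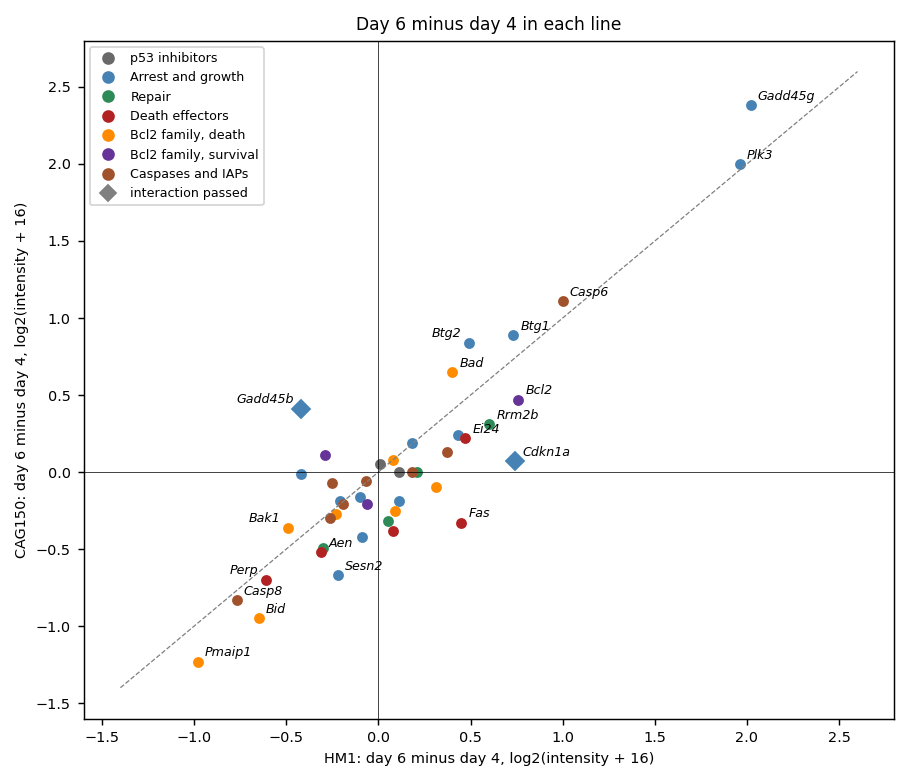
Each point is 1 gene, with its day 6 minus day 4 difference of log2(intensity + 16) in HM1 on the horizontal axis and in CAG150 on the vertical axis, coloured by role, and the dashed line marks equal change. Gadd45g and Plk3 lie near 2 on both axes. Cdkn1a and Gadd45b, drawn as diamonds, are the genes for which the difference in day change between lines passed the interaction test.

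Btg1 and Btg2, antiproliferative genes of the Tob family, also rose. Btg1 had 2269, 1985 and 2185 at day 6, against 1236, 1099 and 1116 at day 4, in CAG150 (0.89 ± 0.09, adjusted p = 7.5e-06), and the HM1 difference was 0.73 ± 0.09 (adjusted p = 4.9e-05). Btg2, which marks neurogenic divisions in the mouse brain, had 539, 561 and 609 at day 6, against 321, 315 and 298 at day 4, in CAG150 (0.84 ± 0.11, adjusted p = 7e-05), and differed by 0.49 ± 0.11 in HM1 (adjusted p = 0.0043). Every day 6 array of both genes lay above the day 4 arrays of its line. Casp6, an executioner caspase, had 433, 473 and 479.8 at day 6, against 243, 173 and 206 at day 4, in CAG150, and 429, 461 and 451 at day 6, against 211, 225 and 209 at day 4, in HM1. It rose 2.16-fold in CAG150 (1.11 ± 0.11) and 2.00-fold in HM1 (1.00 ± 0.11).

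Among the survival members, Bcl2 had 159, 149.9 and 146 at day 6, against 104, 96.6 and 115 at day 4, in CAG150 (0.47 ± 0.09, adjusted p = 0.0012), and 204, 226 and 204 at day 6, against 119, 106 and 131 at day 4, in HM1 (0.76 ± 0.09, adjusted p = 4.2e-05). Bad, a BH3-only protein controlled by survival signals, had 201, 218 and 183 at day 6, against 123, 119 and 125 at day 4, in CAG150 (0.65 ± 0.10, adjusted p = 0.00016), and differed by 0.40 ± 0.10 in HM1. Rrm2b rose by 0.31 in CAG150 (adjusted p = 0.012) and by 0.60 in HM1 (adjusted p = 0.00014). None of these overlapped between days within a line. Both a survival gene and a death gene of the Bcl2 family were among the increases.

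Genes that fell in both lines also numbered 8 (18.2%), against 13.8% of all genes: Ddb2, Perp, Aen, Bak1, Pmaip1, Bid, Cycs and Casp8. For 4 of them a call rested on single arrays. The HM1 call was lost for Ddb2 without replicate 2 or 3 of day 4 or 3 of day 6 (adjusted p up to 0.12), for Aen without replicate 2 of day 4 or 2 or 3 of day 6 (up to 0.069), and for Cycs without replicate 1 or 2 of either day (up to 0.11). The CAG150 call of Bak1 was lost without replicate 2 or 3 of day 4 or 1 or 2 of day 6 (up to 0.13), and with probe sets averaged Bak1 passed in neither line. Pmaip1 differed between day 6 and day 4 by -1.23 ± 0.22 in CAG150 (adjusted p = 0.00066) and by -0.98 ± 0.22 in HM1 (adjusted p = 0.0039). Bid had 109.6, 137 and 121 at day 6, against 256, 257 and 241 at day 4, in CAG150 (-0.95 ± 0.09, adjusted p = 3.1e-06), and 157, 173 and 159 at day 6, against 257, 277 and 257 at day 4, in HM1 (-0.65 ± 0.09, adjusted p = 0.00011). Day 6 arrays of Bid and Pmaip1 lay below all day 4 arrays of their line. Casp8, the initiator caspase of death receptors, had 12.3, 19.2 and 12.5 at day 6, against 43.6, 35.1 and 36 at day 4, in CAG150, and 12.4, 12.9 and 8.25 at day 6, against 26.3, 32.9 and 32.2 at day 4, in HM1. Near the filter at day 6 in both lines, it differed by -0.83 ± 0.11 in CAG150 and -0.77 ± 0.11 in HM1, and by -1.35 and -1.39 with a constant of 1 and -0.38 and -0.33 with 64. Perp fell 1.63-fold in CAG150 (-0.70 ± 0.09) and 1.53-fold in HM1 (-0.61 ± 0.09).

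**Figure D4:**
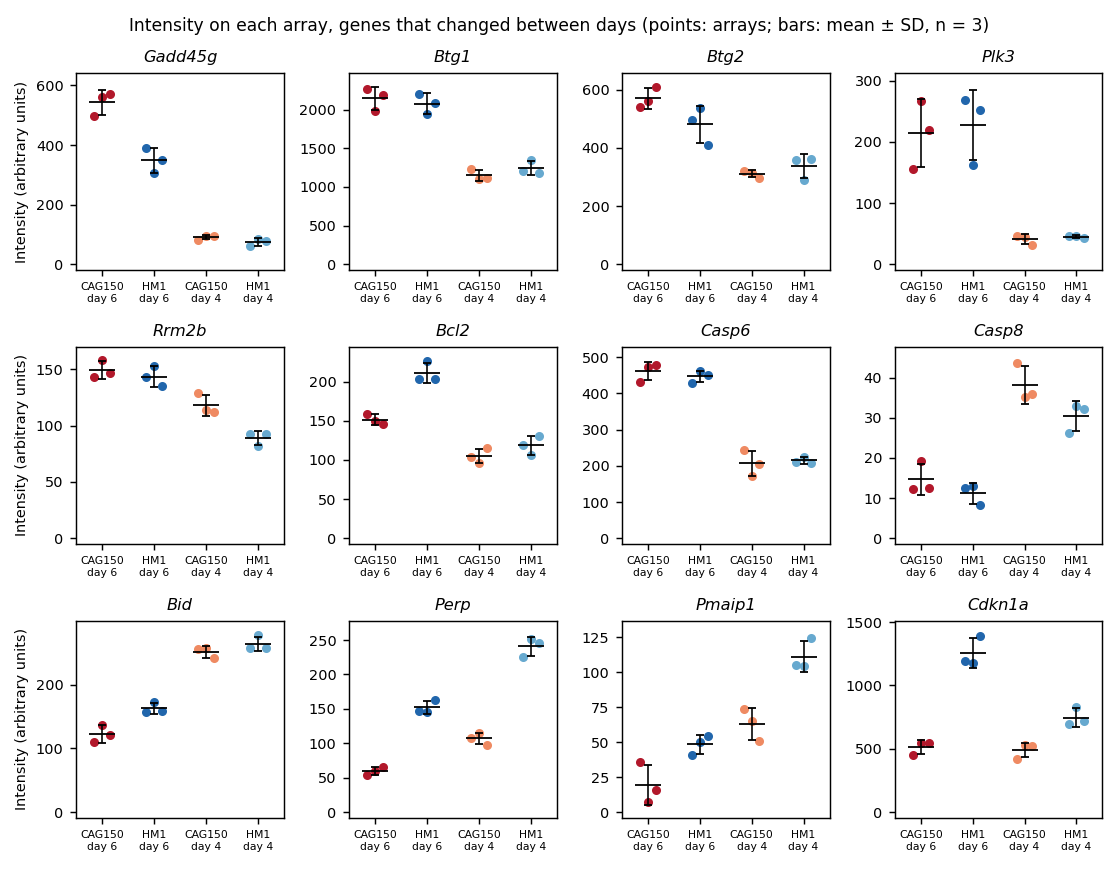
Intensity of 12 genes that changed between days on each array, with 3 points per group and bars for the mean ± SD, in the order CAG150 day 6, HM1 day 6, CAG150 day 4 and HM1 day 4. Gadd45g, Btg1, Btg2, Plk3, Rrm2b, Bcl2 and Casp6 are higher at day 6 in both lines, Casp8, Bid, Perp and Pmaip1 are lower, and Cdkn1a rose in HM1 and did not pass in CAG150.

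Other changes passed in 1 line. In HM1, Cdkn1a, Trp53inp1, Ei24, Bmf and Birc2 rose and Gadd45a fell, without passing in CAG150. The call of Bmf was lost without replicate 1 or 3 of either day in HM1 (adjusted p up to 0.11) and under quantile normalization or median centring (adjusted p 0.063 and 0.18). In CAG150, Sesn2, Phlda3 and Polk fell, without passing in HM1. The calls of Phlda3 and Polk were each lost without CAG150 replicate 1 or 2 of day 4 or 1 or 3 of day 6, with adjusted p values up to 0.11 and 0.092. Sesn2 had 245, 207 and 216 at day 6, against 353, 372 and 364 at day 4, in CAG150 (-0.67 ± 0.09, adjusted p = 8e-05), and in HM1 it had 341, 353 and 288 at day 6, against 392, 380.3 and 379.7 at day 4 (-0.22 ± 0.09, adjusted p = 0.071). Passing in 1 line does not show a difference between lines, which the interaction tests.

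The interaction, the line difference at day 6 minus that at day 4, passed for 2 of 44 genes, against 3.61% of all genes (1.58% higher and 2.03% lower), and 12 of the 44 (27.3%) had an unadjusted p under 0.05, against 16.5% of all genes. Its median was -0.10, against -0.01 for all genes. Cdkn1a rose in HM1 between the days (0.74 ± 0.12, adjusted p = 0.00035) and was at 453, 548 and 543 at day 6 and at 423, 530.1 and 518 at day 4 in CAG150 (0.07 ± 0.12, adjusted p = 0.66). The interaction was -0.67 ± 0.17 (adjusted p = 0.047). Gadd45b had an interaction of 0.83 ± 0.19 (adjusted p = 0.036), with day differences of 0.41 ± 0.14 in CAG150 (adjusted p = 0.028) and -0.42 ± 0.14 in HM1 (adjusted p = 0.029). In CAG150 its signal was around or under 11.9 at both days and its day 6 and day 4 arrays overlapped, so that this value compares dim readings of a gene that lay above the filter through its HM1 values. The CAG150 call was lost under 8 of 23 alternatives, among them leaving out CAG150 replicate 1 or 2 of day 4 or 2 of day 6 (0.36, 0.30 and 0.31), and the difference ran from 0.13 to 1.48 over all of them. The HM1 call was lost under 7 of 23, among them leaving out HM1 replicate 1 or 2 of either day (adjusted p up to 0.10). A second probe set of Gadd45b gave -0.11 in CAG150 (adjusted p = 0.64) and -0.48 in HM1 (adjusted p = 0.039). The Cdkn1a call was lost with any 1 of 10 of the 12 arrays left out (adjusted p up to 0.11 over the alternatives), and the Gadd45b call with any 1 of 9 (adjusted p up to 0.30).

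No other member passed the interaction test. The 11 genes that passed as lower at day 6 and not at day 4 had interactions between -0.78 and -0.05. Their adjusted p values ran from 0.088 for Sesn2 (-0.45 ± 0.13) upwards, so a change in their difference between days was not shown. Fas had the largest of these values (-0.78 ± 0.29, adjusted p = 0.19). On its second probe set Btg2 had an interaction of 1.00 ± 0.13 (adjusted p = 0.0016 over all probe sets), which was seen after its values were known. That probe set averaged 396 in CAG150 and 339 in HM1 at day 6, and 177 in CAG150 and 317 in HM1 at day 4.

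Further genes of the pathway, outside the 47, gave a mixed picture. Of 18 other p53 targets tested, 9 fell and 0 rose in CAG150 at day 6 (median -0.36), and 5 fell and 3 rose at day 4 (median -0.25). That is 50% and 44.4% of the list, against 21.4% and 15.8% of all genes. The largest decreases at day 6 were in Dusp5, a phosphatase of ERK (-2.22 ± 0.24), Thbs1, thrombospondin 1 (-1.29 ± 0.11), Eda2r, a receptor of the TNF family (-0.84 ± 0.07), and Sfn, the 14-3-3 sigma gene (-0.84 ± 0.22). Dusp5 had 8.55, 6.84 and 11.3 in CAG150 at day 6, against 115, 80.4 and 107 in HM1. Sfn had 3.17, 7.84 and 4.09 in CAG150, against 27.4, 19.6 and 17.7 in HM1. With CAG150 under the filter's 11.9, the sizes of these 2 genes rest on the constant added. At day 4 Thbs1 (-2.02 ± 0.11), Dusp5 (-1.85 ± 0.24) and Sfn (-0.88 ± 0.22) were lower and Ccnd2, cyclin D2, was higher (0.73 ± 0.09). Sfn was dim at day 4 as well, at 16.6, 1.18 and 12.8 in CAG150, against 27.3, 23.4 and 43.2 in HM1. The interaction passed for Ccnd2 (-1.56 ± 0.12), Eda2r (-0.52 ± 0.11) and Thbs1 (0.73 ± 0.16). Of 15 relatives, kinases and modifiers of p53, 3 fell and 1 rose at day 6 and 2 fell at day 4. These shares, 26.7% and 13.3%, were near the 21.4% and 15.8% of all genes. Cdkn2a, whose Arf product inhibits Mdm2, fell by 1.04 at day 6 (adjusted p = 0.001), and Trp73, a relative of p53, fell by 0.67 at day 4 (adjusted p = 0.011). Both were dim. Cdkn2a had 12.3, 7.77 and 12.5 in CAG150 at day 6, against 32.1, 56.6 and 31.4 in HM1. Trp73 had 10, 6.36 and 15.1 in CAG150 at day 4, against 29.6, 20.7 and 27.7 in HM1. With CAG150 around or under the filter's 11.9, the sizes of both rest on the constant added.

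Of 20 further apoptosis genes, 3 fell and 1 rose at day 6, a share of 20% that was near the 21.4% of all genes. At day 4 limma passed 0 in either direction, with 3 of 20 at an unadjusted p under 0.05, against 29.8% of all genes. Htra2, a mitochondrial protease that antagonises inhibitors of apoptosis, fell by 0.41 at day 6, and Tradd, an adaptor of TNF receptors, rose by 0.42. Between days in CAG150, 3 of these 20 rose and 5 fell, and in HM1 2 rose and 2 fell. The shares that passed were 40% in CAG150 and 20% in HM1, against 44.4% and 38.9% of all genes. Bok, a Bax-like gene, fell in both lines (-1.23 ± 0.09 in CAG150 and -1.39 ± 0.09 in HM1), and Casp2 rose in both (0.45 ± 0.08 in CAG150 and 0.65 ± 0.08 in HM1).

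Markers of cell types differed between the lines along with these genes. The labels name nervous system as the source, and the summed intensity of 6 neuronal markers was 8667 to 9634 in CAG150 and 5729.9 to 6819 in HM1 at day 6, and 1494 to 1761 in CAG150 and 2813 to 3095 in HM1 at day 4. The day 4 sum runs against most of the list: 3 of the 6 were higher in CAG150 at day 4 and 1 lower (median 0.33), and the lower one, Stmn2, had 609, 663 and 549 in CAG150, against 2081, 2219.6 and 2023 in HM1. At day 6, 5 of the 6 were higher (median 0.52). The sum of 5 neural progenitor markers was 11325 to 11743 in CAG150 and 9638 to 9936 in HM1 at day 6, and 5404 to 5696 in CAG150 and 3383 to 4163 in HM1 at day 4. Of these 5, 0 passed higher and 1 lower at day 6, and 2 higher and 0 lower at day 4. All 6 markers of pluripotent cells were lower in CAG150 at both days, with sums of 866 to 953 in CAG150 and 2144 to 2461 in HM1 at day 6, and 471 to 516 in CAG150 and 1456 to 1657 in HM1 at day 4. Of 6 smooth muscle and mesenchyme markers, 4 were lower at both days, with sums of 343 to 351 in CAG150 and 5118 to 6275 in HM1 at day 6, and 572 to 677 in CAG150 and 3896 to 4494 in HM1 at day 4. Of 6 tested endoderm markers, 4 were lower at day 6 and 3 at day 4, while Afp and Ttr were below the filter. The summed level of 7 proliferation markers overlapped between lines at both days, at 17959 to 19994 in CAG150 and 18871 to 19344 in HM1 at day 6. Of these 7, 1 passed higher and 1 lower in CAG150 at day 6 (28.6%, against 21.4% of all genes). At day 4, 0 passed in either direction, with 1 at an unadjusted p under 0.05 by limma. The part of these cell type differences in the lower p53 target values was not tested.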

How the data were processed

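The deposited table holds 1 intensity per probe set and array, in arbitrary linear units; the authors' software and scaling are not given in the sources used here. Each array's mean, with 2% trimmed at each end, was 150, and values were used as deposited. The platform annotation gave 1 gene symbol for 34945 of 45101 probe sets, several for 932 and none for 9160, and 64 controls were left out. Symbols were checked against RefSeq (GRCm38.p6), and 0 changed.

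Values were taken as log2(intensity + 16), with the brightest probe set per gene, and genes were kept if their mean lay above the 40th percentile of probe sets, an intensity of 11.9. limma 3.58.1 (R 4.3.3) fitted a mean for each of 4 groups over 12 arrays (8 residual and 4.46 prior degrees of freedom), with Benjamini-Hochberg adjustment over 12280 genes. The fit was tested on simulated data. Values on every array are given for at most 12 members per comparison with the largest differences among those that passed, and for Mdm2, Cdkn1a and a few members that illustrate a role. At most 4 genes are named from each list of other pathway genes and comparison. Probe sets were also tested singly. The members and lists were chosen with earlier results of these data known. Deviations of same-numbered arrays from their group means correlated between -0.13 and 0.12 over 18 pairs, with 1 over 0.1. Differently numbered arrays gave -0.16 to 0.22. These values cannot show whether the numbers pair the samples, and the main fit did not pair them. Alternatives were quantile normalization, median centring, other filters and constants, averaged or separate probe sets, a replicate block, other spread estimates, leaving out chromosomes 8, 11 and Y, and leaving out each array.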

Additional observations from a re-analysis of the deposited data

Results flagged for a closer look

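For 2 genes the difference between lines changed between the days by the test of that difference. Cdkn1a had a line difference of -1.26 at day 6 and -0.59 at day 4, a change of -0.67 ± 0.17 (SE, adjusted p = 0.047 by limma), with 3 of 3 CAG150 arrays below all HM1 arrays at each day. Gadd45b had -1.53 at day 6 and -2.35 at day 4, a change of 0.83 ± 0.19 (adjusted p = 0.036), again with 3 of 3 CAG150 arrays below all HM1 arrays at each day. The adjusted p ranged from 0.0099 to 0.11 for Cdkn1a and from 0.009 to 0.30 for Gadd45b over the alternatives, so neither call was stable. All 6 CAG150 arrays of Gadd45b read 13.9 or less, around or under the filter's 11.9. On its second probe set Cdkn1a had a change of -0.51 ± 0.26 (adjusted p = 0.41), and Gadd45b had 0.37 ± 0.23 (adjusted p = 0.52).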

How the results depend on the processing

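With arrays left out one at a time, the members lower in CAG150 numbered 15 to 22 at day 6 and 7 to 13 at day 4, and those higher 1 to 1 and 1 to 3. Between days, 8 to 10 rose and 8 to 12 fell in CAG150, and 12 to 14 rose and 7 to 11 fell in HM1. The interaction gave 0 to 1 members in each direction. Under the other settings, the members lower in CAG150 numbered 18 to 23 at day 6 and 10 to 15 at day 4. Between days, 7 to 11 rose and 9 to 16 fell in CAG150, and 12 to 14 rose and 6 to 14 fell in HM1. With probe sets averaged, 2 members were higher in CAG150 at day 6, and 6 fell between days in HM1. With every probe set tested, 3 members were higher at day 6 and 5 at day 4. The interaction passed for 0 members with a negative change under median centring, no filter, a constant of 1 or separate probe sets. It passed for 0 with a positive change under no filter, the 60th percentile filter, a constant of 1, the replicate block or a spread trend. With the replicate block, the interaction of Gadd45b was 0.83 (adjusted p = 0.062) and 20 members were lower in CAG150 at day 6. None of the 82 member differences past the threshold changed sign under these alternatives. All 4 others that were recomputed, for Mdm2 and Cdkn1a, did. These counts do not take in the dimmer probe sets tested singly, some of which had the opposite sign. That of Trp53inp1 gave 0.19 at day 4, against -0.36 on the brightest. Under median centring the day difference was -0.10 in HM1 and -0.05 in CAG150 for Mdm2, and -0.03 in CAG150 for Cdkn1a. With arrays left out, these ran from -0.12 to 0.10, 0 to 0.10 and -0.03 to 0.16, and the Mdm2 interaction from -0.05 to 0.17. The filter removes dim genes such as Birc3, and for groups near an intensity of 11.9 fold sizes rest on the constant.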
